A study of Mus musculus with 58 samples.

Results

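The autophagy receptors and the core machinery of autophagy were followed in mouse microglia as 10 genes chosen by name, of 47643 genes counted in each library. They comprised the ubiquitin-binding receptors Sqstm1, Nbr1, Optn and Tax1bp1, the ATG8 family genes Map1lc3b and Gabarap, the initiation genes Ulk1 and Becn1, and the conjugation genes Atg5 and Atg7. All 10 were found by symbol, and all 10 passed the filter on low counts in each of the 4 comparisons described here. The series holds 58 samples, of which 34 were microglia libraries, and 24 samples from cortex are not analysed here.

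Macroautophagy encloses cytoplasmic cargo in a double membrane that fuses with the lysosome. The ULK1 kinase complex and the class III PI3 kinase complex around Beclin 1 start the membrane, ATG7 and the ATG12–ATG5 conjugate attach proteins of the ATG8 family to it, and receptors such as p62 (encoded by Sqstm1) tether ubiquitinated cargo to those ATG8 proteins. In microglia the pathway is known for digesting engulfed protein aggregates and for limiting inflammatory signalling, and p62 and the kinases TBK1 and IKKε connect it to the NF-κB pathway. RNA abundance does not measure the flux of cargo through the pathway.

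The 34 libraries formed 8 groups in 4 experiments. Wild-type (WT) primary microglia received full-length tau fibrils at 2 µg/ml over 24 h (4 libraries) or vehicle (4 libraries), to ask how microglia respond to tau. Adult microglia were sorted with magnetic CD11b beads from 11-month-old male mice of the PS19 line, which carries a P301S human tau transgene under the mouse prion promoter (4 libraries), or from NTG mice, labelled WT, without the transgene (4 libraries). Primary microglia labelled IkbkbCA (5 libraries) were Cx3cr1 CreERT2/+; IkbkbCA F/F, in which Cre releases a constitutively active IKKβ, the kinase that activates NF-κB, from the Rosa26 locus. IkbkbWT (5 libraries) carried the same floxed construct and no Cre. Primary microglia labelled Ikbkb-/- (4 libraries) were Cx3cr1 CreERT2/+; Ikbkb F/F and lack IKKβ after recombination, and Ikbkb+/+ (4 libraries) were Ikbkb F/F without Cre. The cultures of all 4 Ikbkb groups were given 4-hydroxytamoxifen. Both Ikbkb genotypes therefore differ from their controls also in the Cre knock-in at Cx3cr1, and its part in a difference cannot be told apart from that of IKKβ. Nothing in the labels states that the libraries of a group came from separate cultures, so p-values measure the spread between libraries, which may be technical for the cultures.

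The libraries were QuantSeq 3′ libraries, in which each transcript gives reads near its 3′ end, so that CPM (counts scaled to a fixed library total) were not divided by gene length and levels of different genes could be set side by side. Total counts ranged from 1672052 to 8349128 per library. The smallest count of any of the 10 genes in any library was 8, for Optn, and the other 9 genes had at least 34 reads in every library. Optn levels therefore carry the largest counting error.

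On GRCm38, Sqstm1 (ENSMUSG00000015837) lies on chromosome 11 at 50199366 to 50210827 on the minus strand, Gabarap (ENSMUSG00000018567) on chromosome 11 at 69991143 to 69994951 on the plus strand, and Becn1 (ENSMUSG00000035086) on chromosome 11 at 101285952 to 101302286 on the minus strand. Nbr1 (ENSMUSG00000017119) also lies on chromosome 11, at 101552149 to 101581951 on the plus strand. Ulk1 (ENSMUSG00000029512) is on chromosome 5 at 110784488 to 110810097 on the minus strand, Atg5 (ENSMUSG00000038160) on chromosome 10 at 44268358 to 44364291 on the plus strand, and Atg7 (ENSMUSG00000030314) on chromosome 6 at 114643097 to 114860614 on the plus strand. Tax1bp1 (ENSMUSG00000004535) is on chromosome 6 at 52713729 to 52766780 on the plus strand, Map1lc3b (ENSMUSG00000031812) on chromosome 8 at 121590361 to 121598760 on the plus strand, and Optn (ENSMUSG00000026672) on chromosome 2 at 5020642 to 5064051 on the minus strand. Sqstm1, Map1lc3b, Optn, Tax1bp1 and Becn1 each overlap a gene on the opposite strand. The strand setting of the counting is not given in the sources used here, and the kit marks strand. The 3′ ends of Sqstm1 and Becn1 shared sequence with their opposite-strand neighbours Mrnip and Cntd1, which collected 281 and 97 reads over the 34 libraries against 68328 for Sqstm1 and 23567 for Becn1.

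RefSeq promoter windows (GRCm38.p6, 250 bases before to 50 bases after a gene start) were found for 9 of the 10 genes, with 11 windows in all. The windows of the genes that tau fibrils raised are shown first. A window of Tax1bp1, whose level did not pass the test in any comparison, is shown because it also matches the NF-κB consensus. Capitals mark matches to the motifs searched on both strands.
Sqstm1 (chr11:50210771-50211070, minus strand): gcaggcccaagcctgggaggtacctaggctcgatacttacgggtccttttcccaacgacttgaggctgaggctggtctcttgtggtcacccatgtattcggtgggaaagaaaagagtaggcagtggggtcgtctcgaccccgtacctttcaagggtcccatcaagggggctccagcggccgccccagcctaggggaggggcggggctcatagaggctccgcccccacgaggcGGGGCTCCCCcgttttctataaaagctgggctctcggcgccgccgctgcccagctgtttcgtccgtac
Atg5 (chr10:44268089-44268388, plus strand): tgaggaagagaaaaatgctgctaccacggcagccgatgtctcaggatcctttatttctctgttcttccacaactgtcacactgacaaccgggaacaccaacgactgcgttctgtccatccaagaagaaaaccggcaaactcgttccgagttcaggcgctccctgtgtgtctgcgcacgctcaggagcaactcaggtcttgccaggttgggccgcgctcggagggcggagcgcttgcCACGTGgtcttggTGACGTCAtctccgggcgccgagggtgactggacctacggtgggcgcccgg
Gabarap (chr11:69991120-69991419, plus strand): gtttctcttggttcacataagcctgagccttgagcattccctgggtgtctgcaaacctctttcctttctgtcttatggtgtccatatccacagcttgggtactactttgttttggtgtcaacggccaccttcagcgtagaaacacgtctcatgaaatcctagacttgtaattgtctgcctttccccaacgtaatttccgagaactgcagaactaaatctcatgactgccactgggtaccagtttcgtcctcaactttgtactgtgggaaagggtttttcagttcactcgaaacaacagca
Tax1bp1 (chr6:52713915-52714214, plus strand): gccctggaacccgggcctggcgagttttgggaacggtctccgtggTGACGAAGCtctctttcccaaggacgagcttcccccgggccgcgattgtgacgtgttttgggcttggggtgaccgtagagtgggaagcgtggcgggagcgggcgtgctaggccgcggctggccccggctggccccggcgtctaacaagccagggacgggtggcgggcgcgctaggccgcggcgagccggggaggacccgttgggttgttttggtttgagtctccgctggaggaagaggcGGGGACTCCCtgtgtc

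The match to the NF-κB consensus in the Sqstm1 window begins 18 bases before the gene start. In the Tax1bp1 window shown, the match begins 34 bases after the gene start on which the window is set. That start lies inside the gene as placed above. The other Tax1bp1 window (chr6:52713479-52713778) holds no match to any of the 5 motifs. A match to the NF-κB consensus is present in 8.46% of the 32851 promoter windows of the table. The Atg5 window holds an E-box (CACGTG) that begins 14 bases before the start. A cAMP response element (TGACGTCA) in the same window begins 1 base before the start, without overlap. The Atg7 window (chr6:114670846-114671145) is set on a start inside the gene as placed above, and it holds an E-box 132 bases before that start. The E-box is in 7.15% and the cAMP response element in 1.79% of all windows. The antioxidant response element core (TGACNNNGC, in 12.4% of all windows) was matched in Map1lc3b and in the Tax1bp1 window shown. The interferon-stimulated response element (in 3.44%) was matched in the Nbr1 window at chr11:101552404-101552703, set on a start inside the gene. It was not matched in the other Nbr1 window. None of the 5 motifs was matched in the windows of Gabarap, Ulk1 and Optn. The Gabarap window is set on a start inside the gene as placed above, and most of its bases lie within that gene. Most of the sequence before the placed start of Gabarap was therefore not searched. A match describes the letters of the window, and binding was not measured in these samples.

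In every group Gabarap and Sqstm1 were the genes with the highest levels of the 10, and Optn and Atg7 were the lowest. Gabarap, an ATG8 family gene, showed the widest differences between groups. Its mean level was 1010.4 ± 109.9 CPM (SD, n = 4) in Ikbkb-/-, 989 ± 77.1 (n = 4) in Ikbkb+/+, 864 ± 70.4 (n = 5) in IkbkbCA, 831 ± 115 (n = 5) in IkbkbWT, 434 ± 118 (n = 4) in PS19, 376 ± 36.0 (n = 4) in NTG, 352 ± 40.0 (n = 4) with tau fibrils and 265 ± 15.3 (n = 4) with vehicle. Of the 7 neighbouring pairs in that order, 5 overlapped, and the libraries did not overlap between IkbkbWT and PS19 or between tau fibrils and vehicle. Map1lc3b, the other ATG8 gene, differed by 1.50-fold between its highest group mean (vehicle, 164 ± 20.7 CPM) and its lowest (NTG, 109 ± 28.5 CPM), and all 7 neighbouring pairs overlapped. The ratio of Gabarap to Map1lc3b was accordingly 8.45 ± 1.63 (n = 4) in Ikbkb+/+ and 1.63 ± 0.197 (n = 4) with vehicle. The experiments differed in the age of the mice, in culture and in treatment, which cannot be told apart, and levels were not tested across them.

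Sqstm1 had its highest mean in IkbkbCA (625 ± 132 CPM), followed by tau fibrils (509.8 ± 46.8), PS19 (454 ± 103), IkbkbWT (432 ± 33.6), Ikbkb-/- (394 ± 14.6), Ikbkb+/+ (386 ± 35.8), vehicle (368 ± 20.4) and NTG (363 ± 85.6), and every neighbouring pair in this order overlapped. Becn1 ran from a mean of 92.0 CPM with vehicle (79.2 to 109 CPM) to 194 ± 16.6 CPM in Ikbkb-/-, a 2.11-fold range, and Ulk1 from 42.8 ± 10.8 CPM with tau fibrils to 89.9 ± 6.60 CPM in Ikbkb-/-, a 2.10-fold range. Optn ranged 3.30-fold between group means, from 8.07 ± 4.40 CPM in NTG to 26.7 ± 7.01 CPM in IkbkbCA, at low counts. Tax1bp1 and Atg7 were the most even, with ratios of 1.28 and 1.27 between their highest and lowest group means. Nbr1 differed by 1.51-fold and Atg5 by 1.79-fold, and in Atg5 the tau fibril and vehicle libraries were the only neighbouring pair without overlap.

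**Figure D1:**
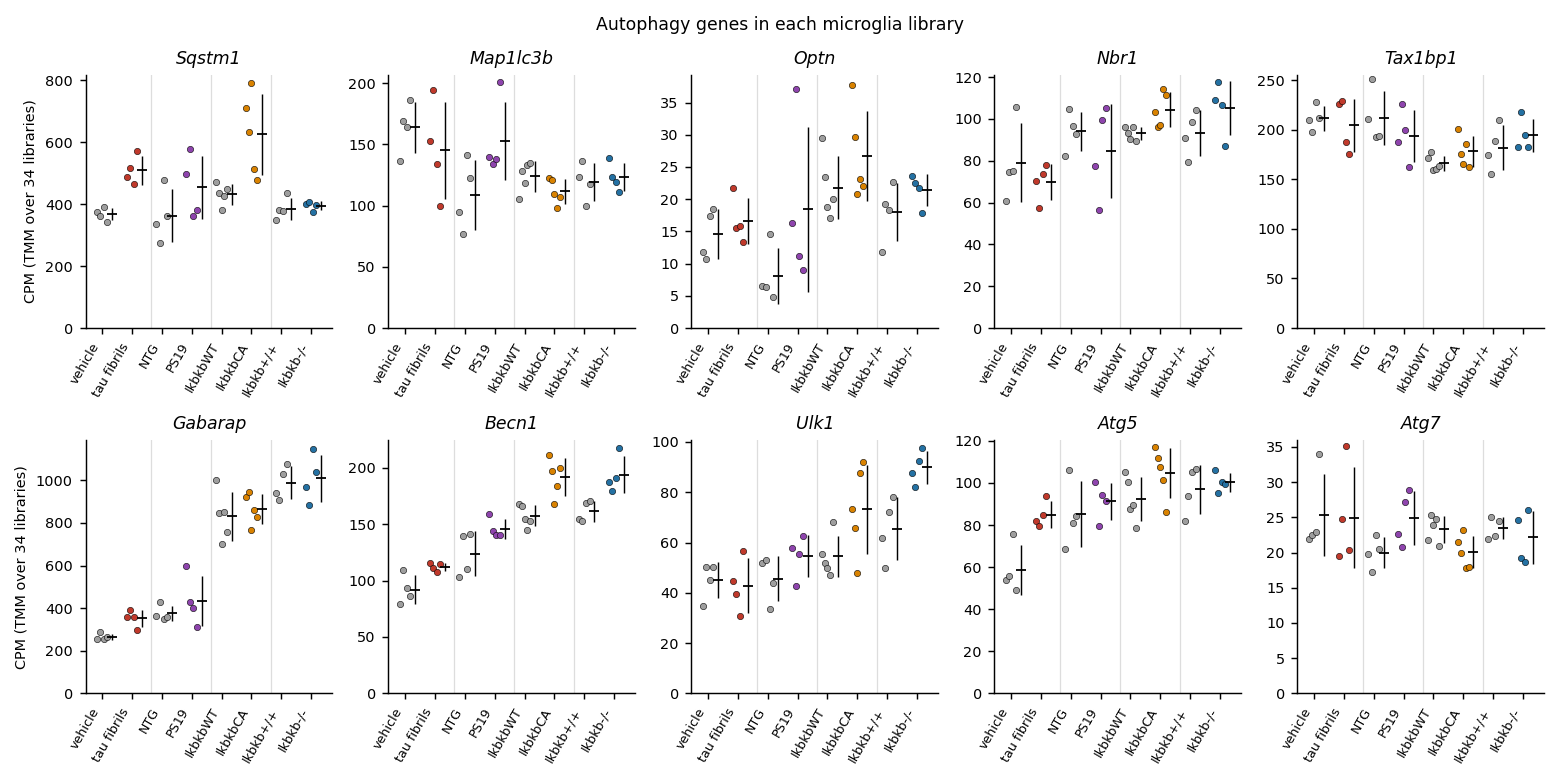
Level of each of the 10 genes (vertical axes, CPM with TMM normalization over 34 libraries, starting at 0) in each library of the 8 groups, where each point is 1 library and the bar beside the points is the mean ± SD. The Gabarap levels of the 4 Ikbkb groups lie above those of the other groups. The mean of Sqstm1 is highest in IkbkbCA, whose libraries overlap those of tau fibrils and PS19.

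The labels were checked first. Ikbkb fell in Ikbkb-/- against Ikbkb+/+, with 24.6, 24.4, 18.5 and 22.2 CPM against 52.5, 44.7, 53.0 and 55.2 CPM (log2 fold change −1.20 ± 0.12 SE). In IkbkbCA its level was 52.1 ± 6.71 CPM against 45.6 ± 7.09 CPM in IkbkbWT (n = 5 each), and the change of 0.17 ± 0.12 did not pass the test. Whether the transgene carries the 3′ end that these reads come from is not given in the sources used here, so Ikbkb does not check the IkbkbCA label. Cx3cr1, the locus of the Cre knock-in, fell in both genotypes (−0.56 ± 0.09 in IkbkbCA and −1.16 ± 0.12 in Ikbkb-/-). Markers of microglia were detected in all groups, although the homeostatic marker P2ry12 was at 3.74 to 9.24 CPM in the tau fibril and vehicle cultures against 2079 to 5389 CPM in the PS19 and NTG libraries. Ikbkb-/- and Ikbkb+/+ differed in the sex-linked genes Xist (5.59 to 10.4 against 239 to 400.2 CPM) and Ddx3y (154 to 172 against 35.0 to 68.3 CPM). IkbkbWT replicates 1 to 3 had 1.68 to 2.76 CPM of Xist and replicates 4 and 5 had 452 and 472. For Ddx3y, IkbkbWT replicates 1 to 3 had 141 to 173 CPM and replicates 4 and 5 had 1.11 and 1.98. The IkbkbCA libraries all had both genes, with 147 to 275 CPM of Xist and 49.0 to 84.2 CPM of Ddx3y. The PS19 and NTG mice were all labelled male. Xist was at 176, 33.1, 4.44 and 1.88 CPM in PS19 replicates 1 to 4 and at 28.0 to 32.7 CPM in NTG. IkbkbWT replicate 3 and IkbkbCA replicate 3 had the highest level of the myelin gene Mbp in their groups (1910.3 and 719 CPM). In bulk libraries fewer cells of a type and less RNA per cell cannot be told apart.

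Tau fibrils raised 3 of the 10 genes against vehicle and lowered none at an FDR under 0.05 (quasi-likelihood test of edgeR, adjusted by the Benjamini-Hochberg method over the 10408 genes tested). Of all genes tested, 29.9% passed the test, 14.5% higher and 15.4% lower, so that 3 of 10 is close to the share of all genes. The genes raised were 1 receptor (Sqstm1), 1 ATG8 gene (Gabarap) and 1 conjugation gene (Atg5). The median log2 fold change of the 10 genes was 0.09, beside −0.01 for all genes tested.

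Among the receptors, Sqstm1 measured 486, 518, 464 and 572 CPM with tau fibrils and 376, 360.5, 391 and 344 CPM with vehicle. Every tau fibril library lay above every vehicle library, and the log2 fold change was 0.45 ± 0.12 SE (edgeR FDR = 0.00543). The other receptors, which bind ubiquitin chains on mitochondria, bacteria or protein aggregates, overlapped between the groups. Optn had 13.4 to 21.7 CPM with tau fibrils and 10.7 to 18.5 CPM with vehicle, a log2 fold change of 0.19 ± 0.26, Nbr1 had −0.20 ± 0.16 and Tax1bp1 −0.07 ± 0.13.

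Of the ATG8 genes, Gabarap passed the test and Map1lc3b did not. Gabarap measured 359, 393, 357 and 297 CPM with tau fibrils and 256, 287, 253 and 265 CPM with vehicle. The groups did not overlap, with a log2 fold change of 0.39 ± 0.12 (edgeR FDR = 0.0189). This call was lost without tau fibrils replicate 2 (0.34, edgeR FDR = 0.0653) and without vehicle replicate 3 (0.37, edgeR FDR = 0.0577). Map1lc3b, which encodes the LC3B protein used to mark autophagosomes, measured 99.3 to 195 CPM with tau fibrils and 136 to 186 CPM with vehicle, and its log2 fold change of −0.19 ± 0.16 did not pass the test.

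Atg5, which forms the conjugate that attaches ATG8 proteins to lipid, measured 81.9, 79.3, 84.7 and 93.9 CPM with tau fibrils and 54.0, 55.6, 75.8 and 49.1 CPM with vehicle. The lowest tau fibril library stood just above the highest vehicle library, and the log2 fold change was 0.51 ± 0.15 (edgeR FDR = 0.0111). Its partner Atg7, the enzyme that activates ATG8 proteins and ATG12, changed by −0.01 ± 0.22 and did not pass the test. Of the initiation genes, Becn1 measured 108 to 115 CPM with tau fibrils and 79.2 to 109 CPM with vehicle, with 3 of 4 tau fibril libraries above all vehicle libraries, and its 0.26 ± 0.13 did not pass the test (edgeR FDR = 0.163). Ulk1 had a log2 fold change of −0.11 ± 0.19.

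In all, 3 of the 10 genes had tau fibril and vehicle libraries that did not overlap, beside 28.4% of the genes tested. With the counts scaled by library totals alone, the median of all genes moved from −0.01 to −0.16, the share of calls that were higher moved from 48.5% to 31.9%, and none of the 3 genes passed the test (Sqstm1 0.30, edgeR FDR = 0.0646; Atg5 0.37, edgeR FDR = 0.0631; Gabarap 0.24, edgeR FDR = 0.177). Taken relative to the median of all genes, their values under that scaling were 0.47, 0.53 and 0.40 for Sqstm1, Atg5 and Gabarap, beside 0.46, 0.53 and 0.40 with TMM on the same footing. Markers of neurons and astrocytes summed to lower levels with tau fibrils (171.6 to 230.5 and 271 to 352 CPM) than with vehicle (332 to 414 and 498 to 528 CPM), with all 6 markers of each list detected. Markers of microglia (10711 to 12224 against 4583 to 5884 CPM, 10 of 10 detected) and of border-associated macrophages (109.6 to 117 against 59.9 to 92.2 CPM, 4 of 5 detected) summed to higher levels. The macrophage sum was mostly Pf4 (mean 93.0 against 61.7 CPM), then Mrc1 (16.8 against 12.9). F13a1 (2.80 against 1.85), Cd163 (0.21 against 0) and Lyve1 (0 against 0.13 CPM) were low. Reads outside genes were 16.3% to 22.2% against 23.3% to 29.1%. The part of these differences in the results was not tested.

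The wider pathway was described with 12 lists of 97 genes that include the 10. The lists were chosen with earlier results of these data known, so their shares of calls are descriptions and no test of the pathway. With tau fibrils 21 of the 93 listed genes tested were higher and 6 were lower, 29% in all beside 29.9% of all genes tested, so that the lists as a whole moved no more often than all genes. Genes for the fusion of autophagosomes with lysosomes held 5 of the 21, with no gene of that list lower among 11 tested. Vamp8, the SNARE of the lysosomal side, changed most in that list (log2 fold change 1.47 ± 0.13), followed by Vps11 (0.63 ± 0.23), the small GTPase Rab7 (0.56 ± 0.13), Vps33a (0.54 ± 0.16) and Plekhm1 (0.47 ± 0.16). The partners of the receptors held another 5 of 8 tested, namely the kinases Ikbke (2.44 ± 0.29) and Tbk1 (0.81 ± 0.26), the ubiquitin-editing gene Tnfaip3 (2.22 ± 0.42), its adaptor Tnip1 (1.05 ± 0.15) and the ubiquitin ligase Trim21 (2.16 ± 0.36). These include known targets or components of the NF-κB and interferon pathways, among them Ikbke, Tbk1, Tnfaip3 and Tnip1.

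The regulators and the remaining lists were mixed. Tfe3 (0.97 ± 0.16) and Mitf (0.85 ± 0.14), transcription factors of lysosomal genes, rose, while Foxo1 fell (−0.52 ± 0.20). Map1lc3a, a further ATG8 gene, fell by 0.60 ± 0.14 on the log2 scale, opposite to Gabarap in the same list. Tollip (−0.65 ± 0.20), an endosomal receptor, and Wipi1 (−0.51 ± 0.16), which binds the lipid made by the class III PI3 kinase, also fell, and Uvrag (0.62 ± 0.21) of that kinase complex rose. Of the chaperone-mediated autophagy list, Lamp2 (0.56 ± 0.12) and Hspa8 (0.39 ± 0.13) rose and Hsp90aa1 fell (−0.63 ± 0.17). Nfe2l2 (0.39 ± 0.13) and Slc7a11 (1.17 ± 0.41) rose in the NRF2 list, and of the nutrient-sensing list Prkaa1 rose (0.50 ± 0.19) and Ddit4 fell (−0.72 ± 0.21). None of the 5 genes of the ULK complex passed the test. Of the 24 listed genes outside the 10 that were called, 11 passed the test under every alternative, among them Vamp8, Rab7, Tfe3, Mitf, Ikbke, Tnip1 and Lamp2.

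In PS19 against NTG microglia none of the 10 genes passed the test, and 8 of the 11323 genes tested did (0.0707%). At an unadjusted p under 0.05 in the edgeR test 1 of the 10 genes passed (Optn), beside 8.63% of all genes. DESeq2 called 98 genes and limma-voom 4 genes, none of them among the 10. The PS19 and NTG libraries overlapped for all 10 genes, beside 5.9% of all genes tested without overlap. The median log2 fold change of the 10 was 0.22, beside 0.00 for all genes tested, and 8 of the 10 values were above 0.

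The largest value was that of the receptor Optn, at 16.3, 37.1, 11.3 and 9.06 CPM in PS19 and 6.59, 6.30, 14.6 and 4.82 CPM in NTG. PS19 replicate 2 stood above the other 7 libraries, and the log2 fold change of 1.06 ± 0.47 had an edgeR FDR of 0.558. Without 1 library at a time this value ranged from 0.54 to 1.56. Sqstm1 measured 497, 579, 361 and 379.6 CPM in PS19 and 336, 274, 479 and 363 CPM in NTG, and its 0.29 ± 0.22 did not pass the test (edgeR FDR = 0.745). PS19 replicates 1 and 2 lay above all NTG libraries and replicates 3 and 4 lay among them.

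Map1lc3b was the gene with the next largest value. It measured 139, 134, 138 and 201 CPM in PS19 and 95.1, 76.9, 141 and 123 CPM in NTG, with a log2 fold change of 0.46 ± 0.22 (edgeR FDR = 0.607). Atg7 (0.28 ± 0.21), Ulk1 (0.24 ± 0.21), Becn1 (0.21 ± 0.18), Gabarap (0.18 ± 0.21) and Atg5 (0.07 ± 0.19) were above 0 and Nbr1 (−0.18 ± 0.21) and Tax1bp1 (−0.17 ± 0.18) below it, all without passing the test. The biological coefficient of variation of this comparison was 30.5%, the widest of the 4, beside 16.7% for tau fibrils, 23.5% for IkbkbCA and 10.9% for Ikbkb-/-.

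The PS19 libraries were uneven. PS19 replicate 1 had 176 CPM of Xist and replicate 2 had 33.1, beside 4.44 and 1.88 CPM in replicates 3 and 4. The NTG libraries had 28.0 to 32.7 CPM. Granulocyte markers summed to 409.9 to 2614 CPM in PS19 and 1583 to 2214 CPM in NTG. Their part in these values was not tested. Without PS19 replicates 1 and 2, again none of the 10 genes passed the edgeR test, Gabarap (−0.09) and Nbr1 (0.10) changed sign, and the values of Sqstm1 and Optn were 0.01 and 0.24. Of the 12 lists, 0 of 93 genes tested passed the test.

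**Figure D2:**
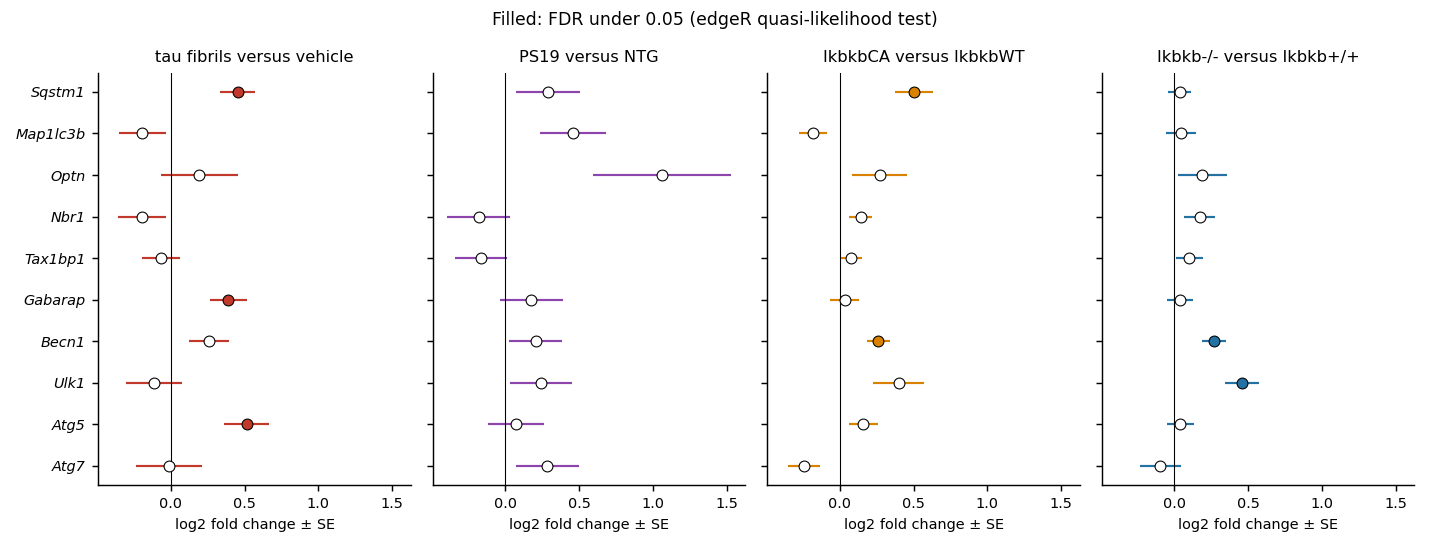
Log2 fold change ± SE (horizontal axes) of the 10 genes (rows) in the 4 comparisons, with filled points for those that passed the edgeR quasi-likelihood test at an FDR under 0.05 and open points for those that did not. The 7 filled points are all to the right of 0.

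IkbkbCA, with constitutively active IKKβ, raised 2 of the 10 genes against IkbkbWT and lowered none, beside 14.5% of the 11697 genes tested (7.31% higher and 7.16% lower). They were the receptor Sqstm1 and the initiation gene Becn1, and in 2 of the 10 genes the groups did not overlap, beside 12.3% of all genes. The median log2 fold change of the 10 genes was 0.15, beside −0.05 for all genes tested.

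Sqstm1 measured 709, 633, 792, 513 and 477 CPM in IkbkbCA and 471, 436, 379.8, 425 and 448 CPM in IkbkbWT. Every IkbkbCA library was higher than every IkbkbWT library, with replicate 5 of IkbkbCA only just above replicate 1 of IkbkbWT. The log2 fold change was 0.50 ± 0.13 (edgeR FDR = 0.0223). The call held under all 9 other settings and in 5 of 10 fits that left out a library, and the log2 fold change was 0.47 to 0.50 with an edgeR FDR of 0.0503 to 0.0561 without IkbkbWT replicates 2, 3 or 4 or IkbkbCA replicates 1 or 2.

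Becn1, the scaffold of the class III PI3 kinase, measured 212, 197, 168, 184 and 199.5 CPM in IkbkbCA and 168, 166, 155, 145 and 153 CPM in IkbkbWT. The lowest IkbkbCA library, replicate 3, lay next to the highest IkbkbWT library. The log2 fold change was 0.26 ± 0.08 (edgeR FDR = 0.0408). The call was lost in 8 of 10 fits that left out a library, all except those without IkbkbWT replicate 1 or IkbkbCA replicate 3 (0.24 to 0.27, edgeR FDR = 0.0658 to 0.106), with counts scaled by totals, with low-count genes kept and with Ddx3y as a covariate.

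Ulk1, the kinase that starts autophagy, measured 73.4, 65.7, 47.7, 87.5 and 91.9 CPM in IkbkbCA and 55.5, 52.0, 49.9, 46.9 and 68.2 CPM in IkbkbWT. IkbkbCA replicate 3, the IkbkbCA library with the most Mbp, lay among the IkbkbWT libraries, and the log2 fold change of 0.40 ± 0.17 did not pass the test (edgeR FDR = 0.158). It passed without IkbkbCA replicate 3 (0.55, edgeR FDR = 0.0186) and with 3 sets of libraries as a covariate (0.37, edgeR FDR = 0.0372).

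The remaining genes overlapped between the groups. Optn had 0.27 ± 0.19, Atg5 0.16 ± 0.10, Nbr1 0.14 ± 0.08, Tax1bp1 0.07 ± 0.07 and Gabarap 0.03 ± 0.10. Atg7 (−0.24 ± 0.11, edgeR FDR = 0.164) and Map1lc3b (−0.18 ± 0.10, edgeR FDR = 0.255) were below 0. Gabarap changed sign with counts scaled by totals (−0.03). That scaling moved the median of all genes from −0.05 to −0.11 and the share of calls that were higher from 50.5% to 37.6%.

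Of the 95 listed pathway genes tested in IkbkbCA, 14 were higher and 5 were lower, 20% in all beside 14.5% of all genes tested. Because the lists were chosen with earlier results known and hold known NF-κB genes, this share does not test the pathway. The number called was 11 without IkbkbWT replicate 2, IkbkbWT replicate 5 or IkbkbCA replicate 4, 12 without IkbkbWT replicate 4, and 34 with the 3 sets of libraries as a covariate. The class III PI3 kinase list held 3 of those higher, Becn1, Atg14 (0.38 ± 0.08), the subunit that directs the complex to autophagosomes, and the catalytic subunit Pik3c3 (0.43 ± 0.13), and 1 lower, Rubcn (−0.45 ± 0.12), an inhibitor of the complex. Atg12 (0.38 ± 0.11) and Atg4a (0.55 ± 0.16) rose in the conjugation list. Among the receptor partners 4 of 8 rose, Ikbke (1.79 ± 0.16), Tnip1 (1.60 ± 0.15), Tnfaip3 (1.35 ± 0.24) and Trim21 (1.00 ± 0.15), and Tbk1 had 0.18 ± 0.11 without passing the test.

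The fusion list held 1 gene higher (Vamp8, 0.44 ± 0.12) and 1 lower (Plekhm1, −0.52 ± 0.15) among 11 tested. Nfe2l2 (0.76 ± 0.10), the transcription factor NRF2 that p62 is known to stabilise, Prkaa1 (0.57 ± 0.13) and Lamp2 (0.30 ± 0.08) rose, and Foxo1 (−0.46 ± 0.10), Tsc1 (−0.42 ± 0.11) and Wipi1 (−0.38 ± 0.11) fell. No gene of the ULK complex or the ATG8 family passed the test. Of the 17 genes outside the 10, 8 passed the test under every alternative (Atg14, Foxo1, Ikbke, Nfe2l2, Prkaa1, Tnfaip3, Tnip1 and Trim21). Markers of border-associated macrophages summed to 481 to 1028 CPM in IkbkbCA and 1365 to 1884 CPM in IkbkbWT, with all 5 detected in IkbkbCA. The lower sum was mostly Mrc1 (mean 272 against 1122 CPM), then F13a1 (21.8 against 135) and Lyve1 (1.82 against 41.1). Pf4 was not lower (mean 381 against 376 CPM), and Cd163 was low in both groups (0.33 against 0.69). Granulocyte markers summed to 16.9 to 85.3 against 6.32 to 12.0 CPM, mostly through S100a8 (mean 31.0 against 5.27 CPM). The means of S100a9 (2.90 against 2.73), Camp (1.26 against 0.30), Ngp (0.89 against 0.81) and Ly6g (0.04 against 0 CPM) were low in both groups. Reads outside genes were 12.4% to 13.99% against 15.9% to 18.7%. The part of these differences in the results was not tested.

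Ikbkb-/- raised 2 of the 10 genes against Ikbkb+/+ and lowered none, beside 14.6% of the 11242 genes tested (7.64% higher and 6.96% lower). Both were initiation genes, Ulk1 and Becn1, and in these 2 the groups did not overlap, beside 17.9% of all genes. The median log2 fold change of the 10 genes was 0.07, beside 0.00 for all genes.

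Ulk1 measured 87.6, 82.1, 92.6 and 97.5 CPM in Ikbkb-/- and 61.9, 49.7, 72.3 and 78.3 CPM in Ikbkb+/+. All Ikbkb-/- libraries were above all Ikbkb+/+ libraries, with a log2 fold change of 0.46 ± 0.12 (edgeR FDR = 0.0117). The call was lost without Ikbkb-/- replicate 4 (0.41, edgeR FDR = 0.0501), in a fit of all 18 libraries of both Ikbkb experiments (0.46, edgeR FDR = 0.127) and in that fit with Ddx3y as a covariate (0.49, edgeR FDR = 0.141).

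Becn1 measured 187, 179.8, 191 and 218 CPM in Ikbkb-/- and 154, 152, 169 and 170.3 CPM in Ikbkb+/+. The groups did not overlap, and the log2 fold change was 0.27 ± 0.08 (edgeR FDR = 0.0308). It passed the test in 1 of 8 fits that left out a library (without Ikbkb-/- replicate 2), and in the other 7 it was 0.20 to 0.29 with an edgeR FDR of 0.0501 to 0.128. It passed under 4 of 8 other settings.

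The receptors did not pass the test in Ikbkb-/-. Sqstm1 measured 401, 407, 374 and 396 CPM in Ikbkb-/- and 349, 382, 377 and 435 CPM in Ikbkb+/+, and all Ikbkb-/- libraries lay within the range of Ikbkb+/+ (log2 fold change 0.04 ± 0.08, edgeR FDR = 0.824). Optn had 0.19 ± 0.16, Nbr1 0.17 ± 0.10 and Tax1bp1 0.10 ± 0.09. The ATG8 and conjugation genes were close to 0, with 0.04 ± 0.10 for Map1lc3b, 0.04 ± 0.09 for Gabarap, 0.04 ± 0.09 for Atg5 and −0.09 ± 0.14 for Atg7.

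Of the 94 listed genes tested in Ikbkb-/-, 14 were higher and 6 were lower, 21.3% in all beside 14.6% of all genes tested. The same limit of the lists applies to this share. The number called was 9 in the fit of 18 libraries, with or without Ddx3y, 11 without Ikbkb-/- replicate 4, 12 without Ikbkb-/- replicate 3 and 13 without Ikbkb+/+ replicate 2 or 3. The ULK complex held 3 of 5 higher, Ulk1, Atg13 (0.50 ± 0.15) and Ulk2 (0.24 ± 0.08). Atg14 (0.38 ± 0.11) and Atg12 (0.39 ± 0.11) rose in the PI3 kinase and conjugation lists, Map1lc3a (0.40 ± 0.11) in the ATG8 list and Retreg1 (0.40 ± 0.09), a receptor for the endoplasmic reticulum, in the receptor list. Sesn2 (1.01 ± 0.14) and Ddit4 (0.84 ± 0.17), inhibitors of MTORC1, rose, as did Foxo3 (0.42 ± 0.09), Lamp2 (0.22 ± 0.07), Trim21 (0.69 ± 0.20) and Keap1 (0.39 ± 0.10), the adaptor that targets NRF2 for degradation.

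The NRF2 list held 3 of 6 lower, Txnrd1 (−0.57 ± 0.10), Hmox1 (−0.47 ± 0.09) and Gclm (−0.41 ± 0.11), and none higher. Tnfaip3 (−1.56 ± 0.27), Foxo1 (−0.40 ± 0.13) and Mitf (−0.38 ± 0.10) also fell. Of the 18 genes outside the 10, Sesn2, Foxo3 and Tnfaip3 (3 genes) passed the test under every alternative. Border-associated macrophage markers summed to 415 to 729.8 CPM in Ikbkb-/- and 1478 to 1812 CPM in Ikbkb+/+, oligodendrocyte markers summed to 490.0 to 569 against 263 to 370.4 CPM, and Xist and Ddx3y separated the groups as given above. The part of these in the results was not tested, and sex and genotype cannot be told apart in this experiment.

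**Figure D3:**
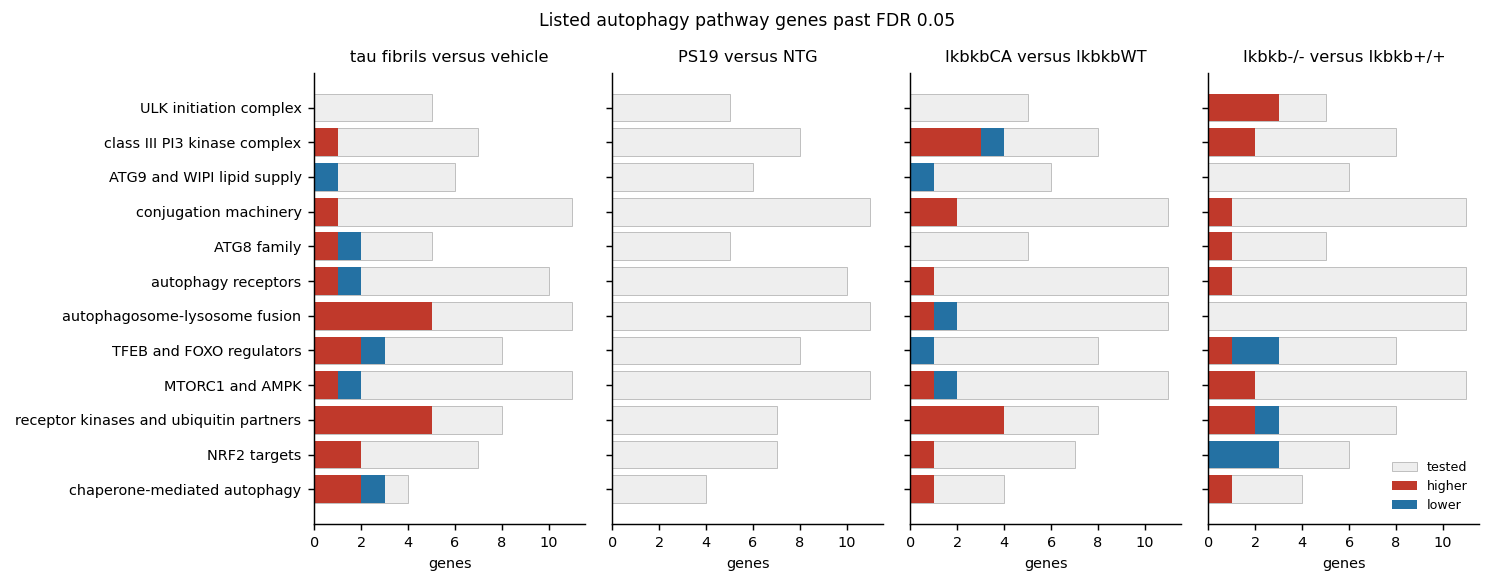
Number of genes (horizontal axes) in each of the 12 pathway lists (rows) that were tested (pale bars) and that passed the edgeR quasi-likelihood test at an FDR under 0.05 as higher (red) or lower (blue) in the 4 comparisons. The fusion list holds 5 higher genes with tau fibrils, the ULK list 3 in Ikbkb-/-, and no list holds any in PS19.

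Becn1 was the gene of the 10 called in both Ikbkb genotypes, with nearly the same value (0.26 ± 0.08 in IkbkbCA and 0.27 ± 0.08 in Ikbkb-/-). Tested directly in the 18 libraries, the difference between the IkbkbCA and Ikbkb-/- effects on Becn1 was 0.01 ± 0.11 on the log2 scale (edgeR FDR = 0.992). For Ulk1 the difference was −0.05 ± 0.23 (edgeR FDR = 0.956). Sqstm1 had the largest difference of the 10 genes, 0.48 ± 0.17 higher in the IkbkbCA effect, and it did not pass the test (edgeR FDR = 0.14). None of the 10 genes passed this test in edgeR or DESeq2, beside 3.12% of the 12352 genes tested in edgeR, and 1 (Sqstm1) had an unadjusted p under 0.05, beside 15.3% of all genes.

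Of the 94 pathway genes tested in both experiments, 7 were called in both, which is 36.8% of the 19 called in IkbkbCA and 35% of the 20 called in Ikbkb-/-. Of the 11137 genes tested in both, 617 were called in both, 37.5% and 38.1% of the calls of each, so the pathway genes were called in both about as often as all genes. Becn1, Atg14, Atg12, Lamp2 and Trim21 were higher and Foxo1 was lower in both, and Tnfaip3 was higher in IkbkbCA and lower in Ikbkb-/- (6 of 7 in the same direction, beside 575 of 617 for all genes). The test of the difference called 6 of 95 pathway genes (6.32%, beside 3.12% of all genes). The lists were chosen with earlier results known, and Ikbke, Tnip1 and Tnfaip3 among these calls are known NF-κB or interferon genes, as given above. It called Ikbke (1.95 ± 0.23), Tnip1 (1.53 ± 0.19), Tnfaip3 (2.94 ± 0.42), Nfe2l2 (0.83 ± 0.13) and Hmox1 (1.13 ± 0.30) higher and Map1lc3a (−0.55 ± 0.15) lower in the IkbkbCA effect than in the Ikbkb-/- effect. The controls of both comparisons lack Cre and the genotypes carry it, so a change shared by both genotypes cannot be told apart from an effect of the Cre knock-in. With counts scaled by totals, the share of calls of this difference that were higher moved from 71.2% to 56.6%.

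The tau fibril and IkbkbCA effects were compared in the same way, since both raised Sqstm1. The difference in Sqstm1 was −0.13 ± 0.18 (edgeR FDR = 0.71). None of the 10 genes passed this test in edgeR or DESeq2, beside 9.42% of the 12841 genes tested in edgeR, and Ulk1 (−0.58 ± 0.27) and Nbr1 (−0.41 ± 0.18) had unadjusted p-values under 0.05, beside 23.7% of all genes. Of 96 pathway genes 8 passed (8.33%). On the signed log2 scale the tau fibril effect was the higher for Vamp8 (0.96 ± 0.18), Vps11 (0.95 ± 0.25), Plekhm1 (0.91 ± 0.22) and Rab7 (0.61 ± 0.18) of the fusion list. The same held for Mitf (1.11 ± 0.22), Tfeb (1.03 ± 0.32) and Tfe3 (0.84 ± 0.22) of the regulators. Map1lc3a had the lower effect with tau fibrils (−0.51 ± 0.16).

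Between the tau fibril and PS19 effects, none of the 10 genes passed the test in edgeR or DESeq2 either, beside 8.07% of the 11852 genes tested in edgeR, and 1 had an unadjusted p under 0.05, beside 21.8% of all genes. That gene was Map1lc3b, with a difference of −0.74 ± 0.29 (edgeR FDR = 0.133). Sqstm1 differed by 0.07 ± 0.25. Of 94 pathway genes 4 passed (4.26%). On the signed log2 scale the tau fibril effect was above the PS19 effect for Vamp8 (1.53 ± 0.23) and Trim21 (2.04 ± 0.61). It was below the PS19 effect for Map1lc3a (−1.19 ± 0.23) and Fnip2 (−0.87 ± 0.26). Map1lc3a itself fell with tau fibrils (−0.60 ± 0.14) and did not pass the test in PS19. With counts scaled by totals, the share of calls of this difference that were higher moved from 54.8% to 44.1%.

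The pattern of each gene over the 34 libraries was described by Pearson's r of log2 CPM after subtraction of the mean of each experiment, against 8415 genes with a mean of at least 10 CPM. These values share libraries and depth and carry no test. Tnip1 (r = 0.825), Nab1 (r = 0.817) and Tnfaip2 (r = 0.789) were most like Sqstm1. Gabarap was most like Atp6v1d (r = 0.825), a subunit of the proton pump that acidifies lysosomes, and Becn1 was most like Siglec1 (r = 0.843). The most similar genes were Spg21 for Atg5 (r = 0.799), Kdm4a for Map1lc3b (r = 0.799), Rabgef1 for Optn (r = 0.792), Skiv2l for Nbr1 (r = 0.792), Pcif1 for Atg7 (r = 0.752), Zranb2 for Tax1bp1 (r = 0.742) and Pafah1b1 for Ulk1 (r = 0.697). Among the 10 genes themselves the highest value was between Becn1 and Atg5 (r = 0.631), followed by Sqstm1 and Optn (r = 0.612), and the lowest was between Tax1bp1 and Atg7 (r = −0.425).

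**Figure D4:**
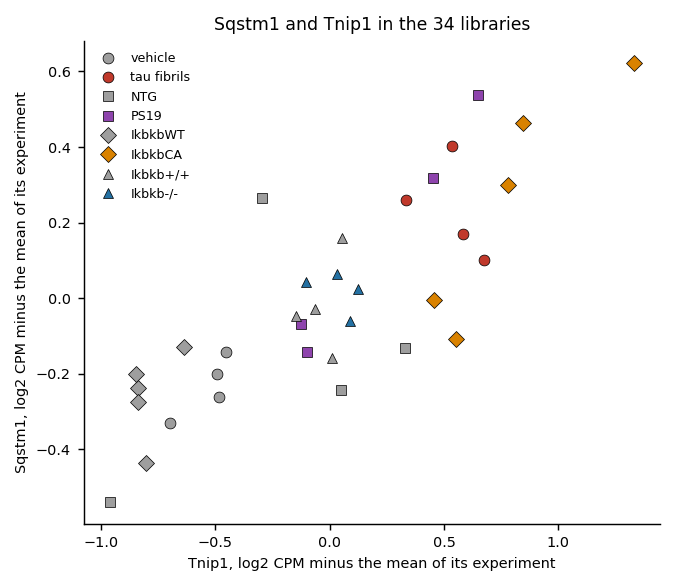
Sqstm1 (vertical axis) against Tnip1 (horizontal axis), both as log2 CPM minus the mean of the experiment, in the 34 libraries, 1 point each, with groups by colour and shape. The tau fibril and IkbkbCA libraries lie to the right of their controls, and the Ikbkb-/- and Ikbkb+/+ libraries lie together near 0.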

How the data were processed

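RNA from 34 microglia samples was sequenced as QuantSeq 3′ libraries. The authors mapped the reads to GRCm38 with a QuantSeq pipeline and deposited, per the file headers and values, whole-number counts per Ensembl gene with 1 library per file. The counting tool and its strand setting are not given in the sources used here for these files. The 5 lines per file that name no gene were left out of library sizes. Reads outside genes were 12.4% to 38.3% of a library and ambiguous reads 0.409% to 0.708%. Of 47643 genes, 47224 had a GENCODE symbol. No 2 libraries held identical counts.

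Each comparison was fitted on its own 2 groups with edgeR 4.0.16 in R 4.3.3 (TMM normalization, filterByExpr with a minimum count of 10 and a minimum total of 15, quasi-likelihood test, Benjamini-Hochberg FDR under 0.05 over all genes tested). Differences between effects were contrasts in 1 fit of both experiments. Levels are CPM with TMM factors over the 34 libraries. Alternatives were RLE normalization, scaling by totals, DESeq2 1.42.0, limma-voom (limma 3.58.1), other filters, covariates and leaving out each library. The settings with library sets or Ddx3y as a covariate and without PS19 replicates 1 and 2 together were chosen after seeing the data. Library sets were replicates 1 and 2, replicate 3, and replicates 4 and 5 of IkbkbCA and IkbkbWT, read from the principal components of all genes. Replicates were numbered in accession order, which pairs no samples. The test script was tested on simulated data. The 10 genes, the motifs and the 12 pathway lists were chosen with earlier results of these data known. Genes named were the 10, Ikbkb and Cx3cr1, listed pathway genes that passed the test, and the gene with the highest correlation to each of the 10 (3 genes for Sqstm1). Tbk1 in IkbkbCA was named after its value was seen. Total counts of 1672052 to 8349128 per library set the precision.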

Additional observations from a re-analysis of the deposited data

Results flagged for a closer look

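In 2 of the 80 groups of 4 or 5 libraries examined (10 genes in 8 groups), 1 library stood far from the others of its group, with a gap to the nearest library larger than Dixon's 95% critical value. Map1lc3b measured 200.9 CPM in PS19 replicate 4, and the other 3 PS19 libraries lay between 134.1 and 139.3 CPM (gap 0.922 of the range). Atg7 measured 34.07 CPM in vehicle replicate 4, and the other 3 vehicle libraries lay between 21.93 and 22.96 CPM (gap 0.915 of the range). Chance alone flags about 1 in 20 such groups.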

How the results depend on the processing

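The number of the 10 genes called fell from 3 to 0 with tau fibrils under scaling by totals. In IkbkbCA it fell from 2 to 1 under scaling by totals, without a filter and with Ddx3y as a covariate. In Ikbkb-/- it fell from 2 to 1 under scaling by totals and without a filter, and to 0 in 1 fit of the 18 Ikbkb libraries with or without Ddx3y. Leaving out 1 library at a time gave 0 to 3 genes in IkbkbCA, 0 to 2 in Ikbkb-/-, 2 to 3 with tau fibrils and 0 in PS19. Of the listed pathway genes, 34 were called in IkbkbCA with library sets as a covariate (19 without) and 11 to 19 without 1 library, 9 in Ikbkb-/- in 1 fit of 18 libraries with or without Ddx3y (20 alone) and 11 to 17 without 1 library, and 13 for the difference between tau fibril and IkbkbCA effects by DESeq2 (8 by edgeR). The cause of these changes was not tested, and leaving out a library leaves fewer samples. No paired analysis was possible because the labels give no replicate numbers (those used here follow accession order and only name libraries). The library sets of IkbkbCA and IkbkbWT were read from the data and are no pairing given by the labels.

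The values that changed sign were small and passed no test before or after. With tau fibrils these were Atg7 with limma-voom (0.014) and no filter (0.013). In PS19 they were Cx3cr1 with no filter (0.0059) and without replicates 1 and 2 (0.10), Gabarap (−0.094) and Nbr1 (0.10) without replicates 1 and 2, and Atg5 with a covariate for the share of reads that fell outside genes (−0.033). In IkbkbCA it was Gabarap under scaling by totals (−0.026). Leaving out 1 library gave −0.23 to 0.15 for Atg7, −0.27 to 0.034 for Ulk1 and −0.11 to 0.0078 for Tax1bp1 with tau fibrils, −0.18 to 0.063 for Cx3cr1 and −0.038 to 0.31 for Gabarap in PS19, −0.019 to 0.13 for Gabarap in IkbkbCA, and −0.00088 to 0.083 for Sqstm1, −0.019 to 0.081 for Atg5, −0.032 to 0.091 for Gabarap and −0.036 to 0.12 for Map1lc3b in Ikbkb-/-. For the difference between the IkbkbCA and Ikbkb-/- effects, scaling by totals gave −0.030 for Gabarap and −0.037 for Becn1, DESeq2 gave 0.0014 for Nbr1 and 0.0065 for Tax1bp1, and no filter gave 0.0023 for Nbr1 and 0.011 for Tax1bp1. For tau fibrils against IkbkbCA, no filter gave 0.0065 for Becn1. For tau fibrils against PS19, scaling by totals gave −0.015 for Sqstm1 and −0.078 for Tax1bp1, and no filter gave 0.033 for Becn1. Optn, with as few as 8 reads in a library, is limited most by depth.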
